A study of Mus musculus with 6 samples.

Results

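The Hox genes of mouse embryonic fibroblasts were examined on bead arrays with and without the lysophosphatidic acid receptor gene Lpar6. All probes whose annotated symbol names a gene of the Hoxa, Hoxb, Hoxc or Hoxd cluster were taken, whatever their signal. This gave 57 of the 45281 probes, for 38 Hox genes, with 19 probes in the Hoxa, 15 in the Hoxb, 11 in the Hoxc and 12 in the Hoxd cluster. The fibroblasts, cells grown out of dissociated embryos, were of a mixed 129SV and C57BL/6 strain. They were Lpar6+/+ (wild type, arrays A, B and C) or Lpar6-/- (knockout, arrays D, E and F), with no treatment named. The age and number of the embryos, the passage and the body part the cells came from are not given in the labels. A difference in any of these between the wild-type and knockout cells cannot be told apart from the genotype. The labels do not say that arrays of 1 genotype came from separate embryos or cultures, and the p-values below therefore rest on array-to-array spread that may be technical.

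Hox genes encode homeodomain transcription factors that give cells their position along the body axis and in the limbs. In the mouse they lie in clusters on 4 chromosomes, Hoxa on chromosome 6, Hoxb on 11, Hoxc on 15 and Hoxd on 2, and are numbered by paralog group from 1 to 13. Genes with low numbers are used from the hindbrain backwards, genes with middle numbers in the neck and trunk, and genes with high numbers in the tail end and the distal limbs. Cultured fibroblasts keep the Hox pattern of the site they were taken from.

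For Lpar6, intensity was 1373, 1223 and 1278 in wild type and 76.7, 77.9 and 76.0 in knockout, the latter not well above background. All 12 fibroblast markers looked for, Col1a1, Pdgfra and Thy1 among them, passed the detection filter described below. Each wild-type array detected 19646 to 20137 probes and each knockout array 19006 to 19249. Across kept probes, arrays correlated at 0.995 within the wild type, at 0.993 to 0.994 within the knockout and at 0.966 to 0.968 between them, and no array stood apart from its group. Markers of other cell types also differed between the groups. At an adjusted p below 0.05 (limma), 39.7% of all 11040 kept genes were called, 19.1% lower and 20.6% higher in the knockout, and the counts of lists here and below are to be read against these shares. Of the neuron and glia markers 10 of 11 kept members were lower in the knockout, with summed intensities of 6864 to 8019 in the wild type and 1871 to 1989 in the knockout. Of the cartilage markers 9 of 9 were lower (17950 to 20773 against 4882 to 5194). Higher were 9 of 9 adipocyte (4425 to 4520 against 11486 to 13275), 11 of 11 skeletal muscle (18028 to 21988 against 30732 to 33760), 9 of 10 epithelial (1687 to 1827 against 2977 to 3227) and 10 of 12 fibroblast markers (37146 to 43841 against 64018 to 68872). Of the markers counted as higher, 4 adipocyte genes (Adipoq, Cidea, Cidec and Plin1), 1 muscle gene (Ckm) and 1 epithelial gene (Esrp1) were detected on no wild-type array and passed the filter through the knockout alone, so their direction was fixed by it. Without them 5 of 5 adipocyte, 10 of 10 muscle and 8 of 9 epithelial markers were higher. The sums include background and can rest on 1 bright gene: in the wild type Lpl alone had 3344, 3288 and 3415 of the adipocyte sum. In RNA of a whole culture, fewer cells of a type and less RNA per cell cannot be told apart, and the part of these cell types in the Hox results was not tested.

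A probe was kept for testing if its detection p, the chance of such a signal from a negative control, was under 0.05 on 3 or more of the 6 arrays. This held for 30 of the 57 Hox probes and 24 of the 38 Hox genes. Each change is a log2 difference, knockout minus wild type ± SE, with 3 arrays a group, after background correction and quantile normalization. A gene was called at an adjusted p below 0.05 (limma, Benjamini-Hochberg over all kept probes). A gene with several kept probes is given by the brightest. Levels of different genes were not compared, since probes differ in brightness.

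Lower Hox transcripts in the knockout were found in all 4 clusters. Of the 24 kept Hox genes 21 were lower in the knockout, 1 was higher (Hoxd8) and 2 were not called (Hoxa13 and Hoxd11). Among all kept genes 39.7% were called, 19.1% lower and 20.6% higher. The median change was -0.63 for the Hox genes and 0.03 for all genes. A fall of at least 2-fold was called in 9 of the 24, against 4.40% of all genes. That count was 7 with the authors' log2 values (1.99% of all genes) and 4 on plain log2 values with no background correction (1.32%). On the normalized scale the 3 knockout arrays lay below the 3 wild-type arrays in 21 Hox genes, against 25.3% of all genes, and above them in Hoxd8 (52.8% of all genes had groups apart in either direction). The filter can favour genes that are bright in 1 genotype, and Hoxa3 passed it through the wild-type arrays alone. Among the 21 Hox genes detected on every array, 19 were lower and 1 higher, with a median of -0.59. Over all genes detected on every array, 18.1% were lower and the median was 0.03. By probe, 26 of the 30 kept Hox probes were lower and 1 was higher, where 37.9% of all kept probes were called and 18.6% were lower. The 26 include the kept probe of Hoxa3 and the dimmer kept probe of Hoxb3, which passed the filter through the wild-type arrays alone.

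**Figure D1:**
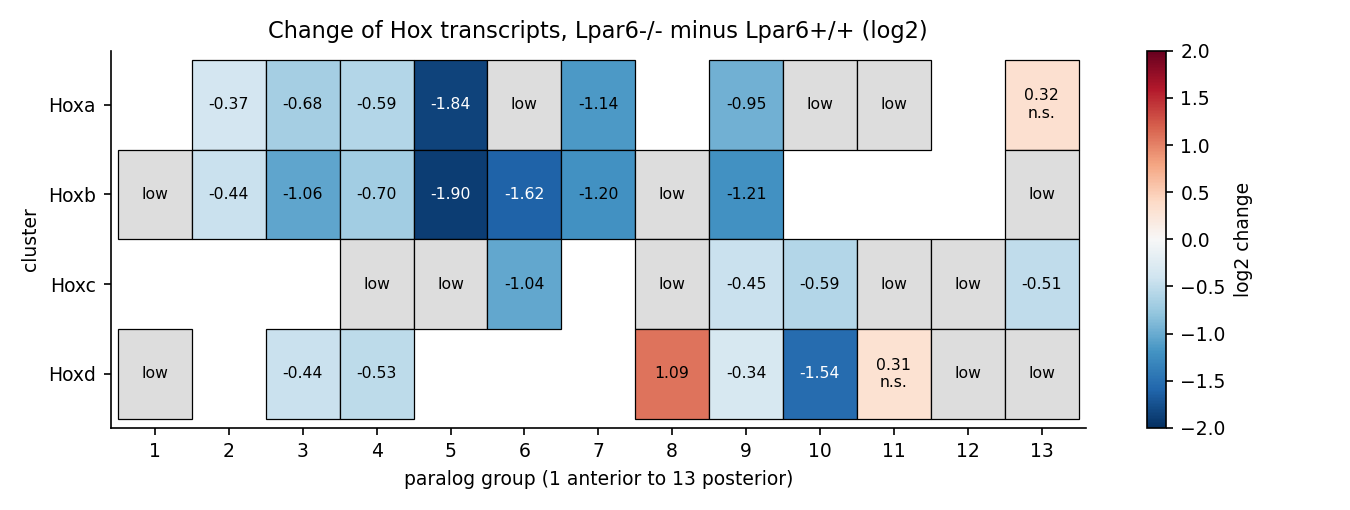
Log2 change (knockout minus wild type) of each Hox gene, by cluster (rows) and paralog group (columns), blue for lower and red for higher. Grey cells marked low were measured but not kept, n.s. marks adjusted p of 0.05 or more, and blank cells hold nothing analysed here. The deepest blue cells are Hoxa5 (-1.84) and Hoxb5 (-1.90), and the 1 red called cell is Hoxd8 (1.09).

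All 7 kept Hoxb genes fell, with the lowest median of the 4 clusters (-1.20) and 5 falls of at least 2-fold, which became 3 with the authors' values and 2 on plain log2 values. In Hoxa 6 of 7 fell (median -0.68), in Hoxc 4 of 4 (median -0.55) and in Hoxd 4 of 6 (median -0.39). The Hoxa count, and that of paralog groups 1 to 3 below, include Hoxa3, whose direction was fixed by the filter. The Hoxa median is the value of Hoxa3 itself. With detection p below 0.01 required on all 6 arrays, which leaves Hoxa3 out, 4 Hoxa genes were lower and the Hoxa median was -0.59. The genes of a cluster are neighbours measured on the same arrays and not replicates, so the difference between clusters was not tested. By position, the kept genes of paralog groups 4 to 8 had a median of -1.09 (9 of 10 lower and 1 higher), those of groups 1 to 3 a median of -0.44 (5 of 5 lower) and those of groups 9 to 13 a median of -0.51 (7 of 9 lower). Within the middle range, groups 5, 6 and 7 held 6 kept genes in clusters a, b and c, whose changes ran from -1.90 to -1.04. This range was picked out after its values were seen and is given as a description only. Dim probes carry smaller log2 changes when background is not removed, and the medians depend on that step: with the authors' log2 values they were -0.71 for Hoxb, -0.30 for Hoxa, -0.47 for Hoxc and -0.24 for Hoxd. By position, the median of groups 1 to 3 was -0.21 on plain log2 values, that of groups 9 to 13 was -0.29 there, and with no filter on detection those of groups 4 to 8 and 9 to 13 were -0.59 and -0.13.

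**Figure D2:**
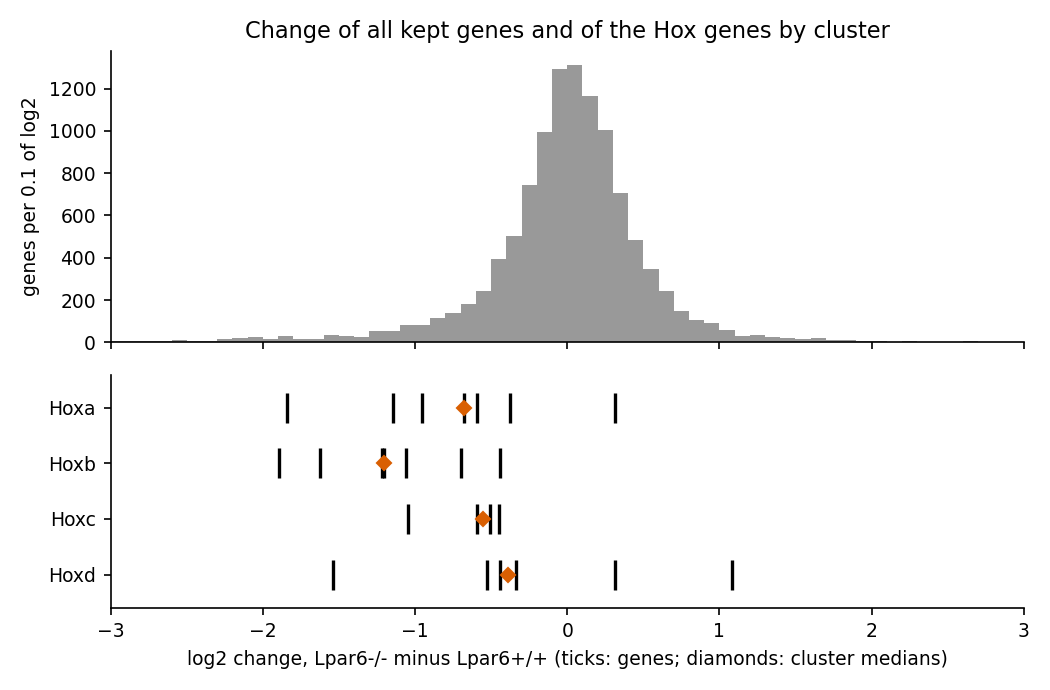
Upper panel, number of kept genes (y) by log2 change (x, knockout minus wild type). Lower panel, each Hox gene as a tick and each cluster median as a diamond on the same axis. The 4 medians, from -1.20 (Hoxb) to -0.39 (Hoxd), lie left of the median of all genes at 0.03, and Hoxd8 at 1.09 stands on the right.

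Start regions are shown for 4 genes with different courses, as 300-base RefSeq windows of build GRCm38.p6 that run from 250 bases before to 50 bases after the start. They are Hoxa5, which fell most in its cluster, Hoxb4, the only kept Hoxb gene with a window in the table, Hoxd8, which rose, and Hoxd10, which fell most in its cluster. Of the 24 kept Hox genes 13 had a window. Capitals mark AGGTCA, a half-site of retinoic acid receptors and other nuclear receptors, and TAAT, the core that homeodomains bind. Both were read on either strand (TGACCT and ATTA on the other), with overlapping matches counted separately. Retinoic acid receptors bind paired half-sites, and pairs were not searched for. The windows are chr6:52204538-52204837 (minus strand), chr11:96318017-96318316, chr2:74704365-74704664 and chr2:74691641-74691940 (plus strand).
Hoxa5: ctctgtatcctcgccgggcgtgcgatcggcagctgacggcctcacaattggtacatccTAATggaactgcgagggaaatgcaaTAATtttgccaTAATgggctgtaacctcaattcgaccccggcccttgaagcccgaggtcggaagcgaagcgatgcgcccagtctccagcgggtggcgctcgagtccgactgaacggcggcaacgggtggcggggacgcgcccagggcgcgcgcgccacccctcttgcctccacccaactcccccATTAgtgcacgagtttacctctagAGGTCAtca
Hoxb4: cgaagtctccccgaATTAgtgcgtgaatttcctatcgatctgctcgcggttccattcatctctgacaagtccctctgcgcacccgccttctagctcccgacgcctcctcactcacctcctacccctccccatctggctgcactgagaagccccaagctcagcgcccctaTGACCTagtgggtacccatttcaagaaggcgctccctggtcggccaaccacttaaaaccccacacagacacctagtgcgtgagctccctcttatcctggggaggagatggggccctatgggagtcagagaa
Hoxd8: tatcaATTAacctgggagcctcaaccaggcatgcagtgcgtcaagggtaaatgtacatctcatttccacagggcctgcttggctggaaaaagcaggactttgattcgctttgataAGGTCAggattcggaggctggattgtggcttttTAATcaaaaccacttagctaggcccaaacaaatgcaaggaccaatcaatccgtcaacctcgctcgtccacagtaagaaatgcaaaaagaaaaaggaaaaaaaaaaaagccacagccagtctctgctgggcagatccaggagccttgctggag
Hoxd10: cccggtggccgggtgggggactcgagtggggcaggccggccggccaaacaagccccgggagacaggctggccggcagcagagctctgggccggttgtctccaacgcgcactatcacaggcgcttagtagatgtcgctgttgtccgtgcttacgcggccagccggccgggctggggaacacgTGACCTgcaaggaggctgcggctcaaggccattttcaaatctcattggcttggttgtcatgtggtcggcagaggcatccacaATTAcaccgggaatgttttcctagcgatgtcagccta

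Each of the 4 windows held 1 AGGTCA match, at different places. Over the 14 windows of kept Hox genes (Hoxd11 has 2), 6 held AGGTCA, those of Hoxa5, Hoxb4, Hoxd3, Hoxd4, Hoxd8 and Hoxd10, while 16.3% of all 32851 windows did. The 6 include the gene that rose. TAAT was in 11 of the 14 and in 58% of all windows. The window of Hoxa5 held 29 CpG dinucleotides and that of Hoxd10 held 22, while that of Hoxd8 held 6 and the median of all windows was 7. Other genes that fell also had few, with 4 for Hoxd4 and 4 for Hoxa9. A match describes the letters only.

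In the Hoxa cluster, the largest fall was that of Hoxa5, which patterns the lung and the neck vertebrae. Hoxa5 had intensities of 2288, 2091 and 1798 in the wild type and of 555, 566 and 590 in the knockout, a change of -1.84 ± 0.093 (limma, adjusted p = 7.98e-07). The lowest wild-type array was over 3 times the highest knockout array. Hoxa7, a trunk gene, went from 1137, 1085 and 940 to 427, 502 and 485 (-1.14 ± 0.098, limma, adjusted p = 2.23e-05). The groups were again fully apart. Hoxa9, known for its role in blood stem cells and leukaemia, had 154, 153 and 136 against 100, 113 and 93 and changed by -0.95 ± 0.16. Since 1 knockout array did not detect it, the size of this fall is uncertain. Its other kept probe gave -0.68.

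Hoxa4 and Hoxa2 had smaller changes than Hoxa5 and Hoxa7, and Hoxa3 gives only a bound. Hoxa4 went from 170, 164 and 166 to 114, 125 and 126 (-0.59 ± 0.12). Hoxa3, needed for the thymus and parathyroid, had 116, 106 and 106 in the wild type and 85.1, 86.8 and 78.9 in the knockout, where no array detected it, and was at least 1.15-fold lower. The direction of Hoxa3 was fixed by the filter, and its gene span overlaps those of Hoxa4, Hoxa5 and Hoxa6 in the RefSeq annotation. Hoxa2, which sets identity in the hindbrain and branchial arches, changed by -0.37 ± 0.10 (limma, adjusted p = 0.0184), while its dimmer kept probe gave -0.23 and did not pass. The call was lost without any 1 of wild-type arrays B and C and knockout arrays D and F (limma, adjusted p = 0.0514 to 0.0711, and 0.00183 to 0.0711 over 17 alternatives). Hoxa13, a gene of the digits and the tail end, had a value of 0.32 that was not called. Its intensities overlapped, with 130, 130 and 134 against 144, 121 and 130. Without knockout array E it passed as higher (0.46, limma, adjusted p = 0.0313, and 0.0313 to 0.533 over 17 alternatives).

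**Figure D3:**
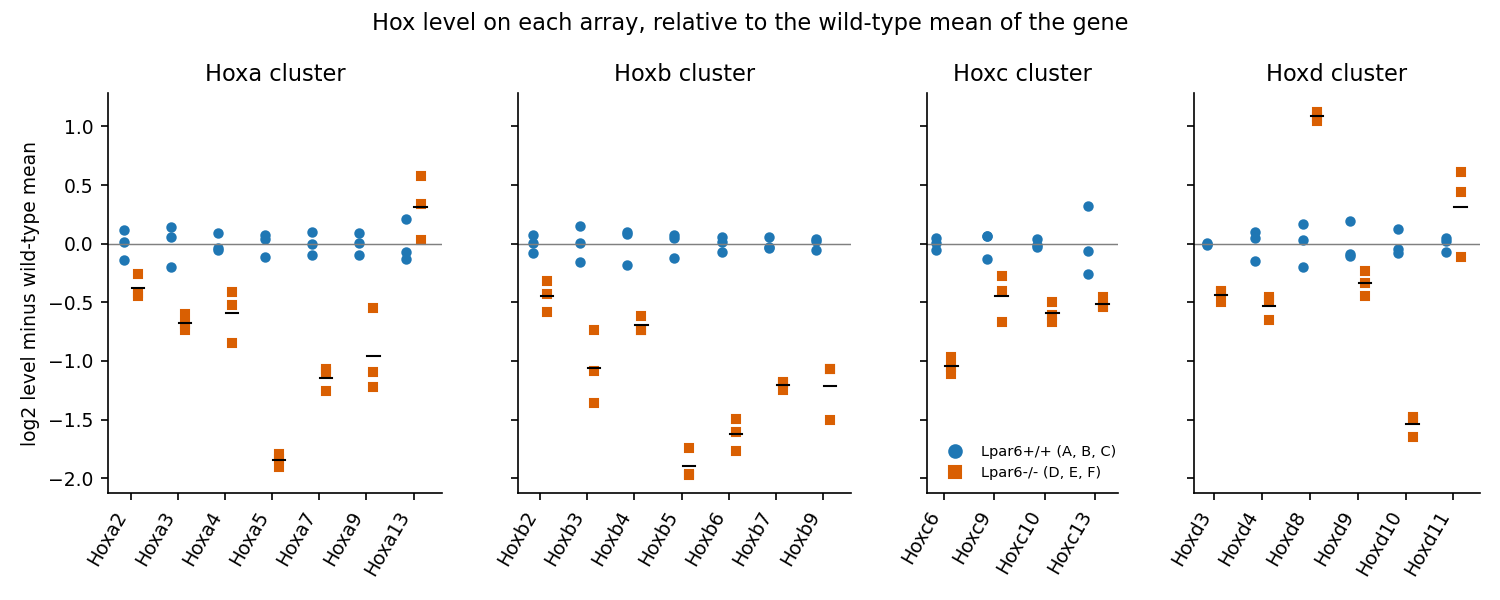
Normalized log2 level of each kept Hox gene on each array (y, minus the wild-type mean of that gene) for the genes of the 4 clusters (x), circles for wild type, squares for knockout and bars for the knockout mean. The squares lie below the circles except in Hoxd8, where they lie above, and in Hoxa13 and Hoxd11, where the groups overlap.

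The Hoxb cluster fell along its kept length. Hoxb5, active in the gut wall and the shoulder region, had 1830, 1673 and 1441 in the wild type against 420, 506 and 428 in the knockout (-1.90 ± 0.10, limma, adjusted p = 1.29e-06). Its paralog Hoxa5 had -1.84, and which of the pair had the larger fall depended on the setting: Hoxa5 on plain log2 values and without knockout array F, Hoxb5 in the other alternatives. Hoxb6 went from 448, 402 and 369 to 151, 171 and 160 (-1.62 ± 0.10, limma, adjusted p = 2.5e-06). Hoxb7 went from 1580, 1497 and 1379 to 585, 656 and 633 (-1.20 ± 0.086), and its other kept probe gave -1.28. In these 3 genes the lowest wild-type array was more than 2 times the highest knockout array. Hoxb9, a thoracic gene, had 250, 232 and 215 against 134, 117 and 131 (-1.21 ± 0.13). Hoxb3, a hindbrain gene, had 209, 187 and 167 against 127, 115 and 104 (-1.06 ± 0.16). The dimmer kept probe of Hoxb3 was detected on no knockout array. Its direction was fixed by the filter, and no size is given for it. Hoxb4, known from blood stem cells, changed by -0.70 ± 0.10 and Hoxb2 by -0.44 ± 0.10. The spans of Hoxb3 and Hoxb4 overlap, so their signals may not be fully separate.

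**Figure D4:**
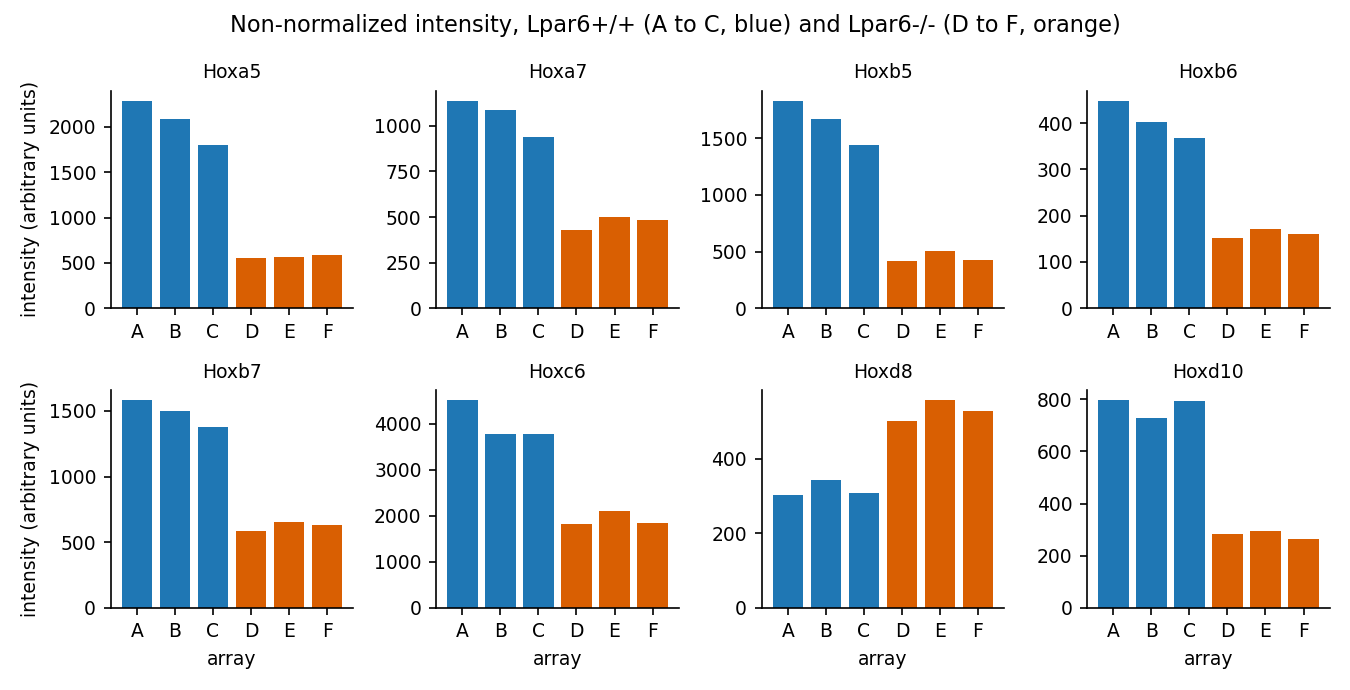
Non-normalized intensity (y, arbitrary units from 0) on each of the 6 arrays (x) for the 8 Hox genes with changes of at least 2-fold and intensities above 300 in 1 genotype, blue for wild type (A to C) and orange for knockout (D to F). In Hoxd8 the orange bars are the taller ones, and in the other 7 genes the blue ones.

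In the Hoxc cluster, 4 of 9 genes were kept and all 4 of these fell. Hoxc6, a gene of the upper thorax, went from 4503, 3768 and 3775 to 1820, 2103 and 1844 (-1.04 ± 0.088, limma, adjusted p = 2.05e-05). Hoxc10, a gene of the lumbar region and hindlimb, had 679, 611 and 624 against 376, 408 and 422 (-0.59 ± 0.089), and its other kept probe gave -0.54. Hoxc9, used in the trunk, had 1640, 1461 and 1249 against 826, 1156 and 1026 (-0.45 ± 0.12, limma, adjusted p = 0.0157). Array E of the knockout came close to array C of the wild type. Without wild-type array A or B the call of Hoxc9 was lost (limma, adjusted p = 0.057 and 0.0559, and 0.000192 to 0.057 over 17 alternatives). Hoxc13, required for hair, had 123, 146 and 122 against 104, 105 and 100 (-0.51 ± 0.14, limma, adjusted p = 0.0178). It did not pass on plain log2 values with no background correction (-0.15, limma, adjusted p = 0.0556, and 0.00161 to 0.0556 over 16 alternatives).

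The Hoxd cluster moved in both directions. Hoxd8, expressed along the trunk, was the 1 Hox gene that rose. It had 303, 343 and 307 in the wild type and 501, 556 and 527 in the knockout (1.09 ± 0.11, limma, adjusted p = 6.47e-05). Its adjusted p stayed below 0.01 in all 17 alternatives, at 4.86e-10 to 0.000556. Hoxd8 was the only kept gene of paralog group 8, since Hoxb8 and Hoxc8 were not kept. On the same arrays its measured neighbours fell. Hoxd9 had 230, 218 and 240 against 181, 176 and 164 (-0.34 ± 0.11, limma, adjusted p = 0.0379), and its other kept probe gave -0.28. That call was lost without any 1 of wild-type arrays B and C and knockout arrays E and F (limma, adjusted p = 0.0548 to 0.13) and with no filter on detection (adjusted p = 0.0651), with 0.00361 to 0.13 over 17 alternatives. Hoxd10, a gene of the lumbar cord and the limb, had 795, 729 and 793 against 282, 295 and 264 (-1.54 ± 0.098, limma, adjusted p = 3.18e-06). Hoxd4 (-0.53 ± 0.10) and Hoxd3 (-0.44 ± 0.084) fell by less, and their spans overlap. Hoxd11, a gene of the forearm, had 109, 106 and 101 against 97.7, 110 and 111. Its value of 0.31 was not called. Without knockout array D it passed as higher (0.52, limma, adjusted p = 0.00539, and 0.00539 to 0.462 over 16 alternatives). It was detected on only 2 knockout arrays, and its span overlaps that of Hoxd10.

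Members of a paralog group in different clusters could be set side by side. In group 9 all 4 genes were kept and fell, with changes of -1.21 (Hoxb9), -0.95 (Hoxa9), -0.45 (Hoxc9) and -0.34 (Hoxd9). The order of Hoxa9 and Hoxc9 rests on the background step, since with the authors' values they changed by -0.41 and -0.42 and on plain log2 values by -0.29 and -0.41. In group 10, Hoxd10 changed by -1.54 and Hoxc10 by -0.59, while Hoxa10 was not kept. In group 4, Hoxa4, Hoxb4 and Hoxd4 changed by -0.59, -0.70 and -0.53, which differ by less than 2 SE. In group 3 the values were -1.06 (Hoxb3) and -0.44 (Hoxd3), beside the bound for Hoxa3. In group 5 Hoxa5 and Hoxb5 differed by less than their SE. Group 13 held Hoxc13, which fell, and Hoxa13, which was not called.

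The other 14 Hox genes had no kept probe. They were Hoxa6, Hoxa10, Hoxa11, Hoxb1, Hoxb8, Hoxb13, Hoxc4, Hoxc5, Hoxc8, Hoxc11, Hoxc12, Hoxd1, Hoxd12 and Hoxd13. Their 18 probes had intensities of 64.6 to 106.5 on every array, and 14 of the 18 were detected on no array. Hoxd13, a digit gene, came closest, with detection on 2 wild-type arrays and no knockout array. In other genes a probe at background lay beside a kept one: Hoxa3 had 3 such probes, Hoxb3 and Hoxa13 had 2 each, and Hoxa9 and Hoxd11 had 1 each. A probe near background therefore does not show that a gene was silent. The sequences of the probes were not used here, and signal from a similar paralog was not checked. Of the antisense and noncoding genes inside the clusters, Hottip (1 probe) and Hoxd3os1 (2 probes) were not kept. Hoxd3os1 was detected on 1 knockout array by 1 of its probes, Hottip on no array.

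Genes beside the clusters were measured on the same arrays. Of the 10 nearest protein-coding genes on each side of each cluster in RefSeq order, 80 in all, 51 were kept. Of these 6 were lower (11.8%) and 11 higher (21.6%) in the knockout, with a median of 0.10, beside 19.1% lower and 20.6% higher among all genes. With median scaling 9 were lower and 7 higher. None of 14 kept neighbours of Hoxa and none of 10 of Hoxd were called lower, with 3 and 2 higher. Around Hoxb 2 of 10 were lower and 2 higher, and around Hoxc 4 of 17 were lower and 4 higher. Evx1, the homeobox gene next to Hoxa13, had a value of -0.14 that was not called (limma, adjusted p = 0.381). Skap2 on the other side of the Hoxa cluster had -0.11 (limma, adjusted p = 0.467) and Mtx2 beside Hoxd1 had 0.26 (limma, adjusted p = 0.229). Mtx2 was near background, detected on only 1 wild-type array and 2 knockout arrays. Beside Hoxc4, Smug1 was lower (-0.31 ± 0.093) and Cbx5 higher (0.32 ± 0.092). Of a shorter list of 15 kept flanking genes, 1 was lower and 3 were higher. These few calls moved with the setting, to 0 lower and 1 higher without wild-type array A or C, to 1 higher without knockout array E, to 0 lower without knockout array F, to none at an adjusted p threshold of 0.01 and to 2 lower and 5 higher with the authors' values.

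Hox proteins bind DNA together with the homeodomain proteins of the Pbx, Meis and Pknox families. Of the 8 kept genes of these families, 6 were lower and none was higher, where 19.1% of all genes were lower, with a median of -0.39. Meis2 had intensities of 3140, 2602 and 2456 in the wild type and 1632, 1976 and 1858 in the knockout (-0.51 ± 0.092, limma, adjusted p = 0.00212). Pbx4 (-0.58 ± 0.15), Pbx3 (-0.47 ± 0.089) and Pknox2 (-0.44 ± 0.13) also fell, and all of these falls were smaller than 2-fold. The calls of this family were close to the threshold: 3 genes were lower without wild-type array B, without wild-type array C, without knockout array F or with no filter on detection, and 2 at an adjusted p threshold of 0.01.

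**Figure D5:**
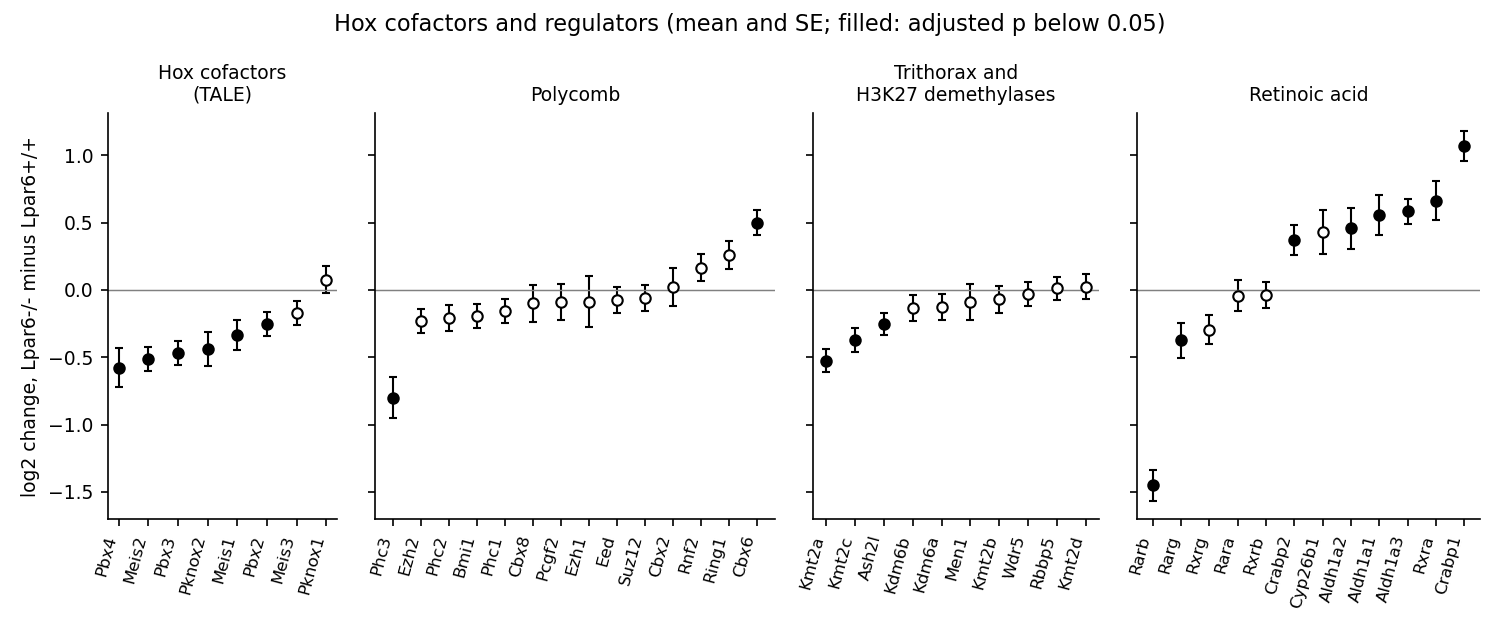
Log2 change (y, knockout minus wild type, mean and SE over 3 arrays a group) of Hox cofactor and regulator genes (x), filled where adjusted p was below 0.05. In the cofactor panel 6 of 8 genes were called lower, and in the Polycomb panel 1 of 14 was lower and 1 higher.

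Polycomb proteins keep Hox genes silent outside their domain, and Trithorax proteins keep them active inside it. Of 14 kept Polycomb genes, beside 19.1% lower and 20.6% higher among all genes, 1 was lower, Phc3 (-0.80 ± 0.15, limma, adjusted p = 0.00287), and 1 higher, Cbx6 (0.50 ± 0.094, limma, adjusted p = 0.0028). The methyltransferase gene Ezh2 had a value of -0.23 that was not called (limma, adjusted p = 0.0731). On plain log2 values 3 Polycomb genes were lower and 2 higher, and with median scaling 3 were lower. Of 10 kept genes of the Trithorax group and the H3K27 demethylases 3 were lower and none higher, beside 19.1% lower among all genes. Only 1 was lower with the mean of a gene's probes and 1 at an adjusted p threshold of 0.01. Kmt2a, the Trithorax methyltransferase gene known for maintaining Hox expression, went from 2199, 1822 and 1948 to 1222, 1354 and 1350 (-0.53 ± 0.087, limma, adjusted p = 0.00136). Kmt2c (-0.37 ± 0.090) and Ash2l (-0.25 ± 0.085) were the others. All of these changes were smaller than the largest Hox falls, those of Hoxa5, Hoxb5, Hoxb6 and Hoxd10. Phc3 fell by more than the Hox median of -0.63, and Kmt2a by more than Hoxc9 (-0.45) and Hoxb2 (-0.44). Phc3 was dim, with 221, 216 and 191 in the wild type and 151, 122 and 133 in the knockout. The changes of dim probes are larger after background correction. These sizes are a description only, and the part of the Polycomb and Trithorax genes in the Hox results was not tested.

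Retinoic acid switches on anterior Hox genes in the embryo. Of 12 kept genes of this pathway 2 were lower and 6 higher, beside 19.1% and 20.6% of all genes. Rarb, a receptor gene that retinoic acid itself induces, fell from 267, 235 and 236 to 132, 117 and 117 (-1.45 ± 0.11, limma, adjusted p = 1.23e-05). Crabp1, which encodes a cytoplasmic retinoic acid binding protein, rose from 534, 564 and 505 to 824, 1004 and 1011 (1.07 ± 0.11, limma, adjusted p = 6.24e-05). Rxra (0.66 ± 0.15) and Aldh1a3 (0.58 ± 0.093), which makes retinoic acid, were also higher. Rxra was detected on only 1 wild-type array. With median scaling, or without wild-type array A, 3 and not 6 genes of the pathway were higher, and 1 and not 2 was lower without any 1 of wild-type arrays A, B and C and knockout array F. Of the Cdx and axial growth genes, which set up Hox expression in the tail bud, only Nr6a1 was kept, with a value of -0.25 that was not called.

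Position genes outside the clusters were also measured. Of 11 kept limb and trunk factors 2 were lower and 2 higher, close to the 19.1% and 20.6% of all genes. Only 1 was called without wild-type array B or C or knockout array E, 2 without knockout array D, and median scaling gave 3 lower and none higher. Msx1 (-0.50 ± 0.11) and Hand2 (-0.42 ± 0.13), both active in the limb bud, were lower, and En1 (0.39 ± 0.12) and Tbx15 (0.35 ± 0.12), which mark limb or trunk skin, were higher. Hand2 was detected on only 1 knockout array. Of 4 kept head and forebrain factors, Dlx1 (0.58 ± 0.16), Egr2 (0.57 ± 0.12) and Barx1 (0.46 ± 0.12) were higher and Dlx2 was at least 1.20-fold lower, a direction fixed by the filter, since no knockout array detected it. Of these 4, 2 were called without wild-type array A or C. Dlx1 was detected on only 1 wild-type array.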

How the data were processed

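Biotin-labelled cRNA was made from 6 fibroblast RNA samples for Illumina mouse arrays, per the labels' protocols. The authors deposited intensity values, not normalized, beside detection p-values, and log2 values of the same arrays. The submitters' processing notes name limma for these, without a version. Group means of the authors' log2 values lay within 0.00385 of those of log2 intensities after quantile normalization alone, which settles their scale and direction. Their column medians were 6.54. As the intensity columns give only genotype and a letter, they were tied to the group, not to a replicate.

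Background correction (normexp from the detection p-values), an offset of 16 and quantile normalization were applied (neqc, limma 3.58.1, R 4.3.3). Background correction makes the changes of dim probes larger than on uncorrected log2 values, and a larger offset makes them smaller. Of 45281 probes 19802 were kept. Symbols came from GEO's platform annotation (34885 probes with 1 symbol, 34807 matched to RefSeq GRCm38.p6 with 0 changes). Probes were tested with lmFit and eBayes and adjusted by Benjamini-Hochberg over all kept probes. Of the steps, only the fit and its adjustment were tested on simulated data. Background correction, normalization and the detection filter were not. A bound sets the bright group's mean against, per array, its own value or the lowest detected value, whichever is higher. The number of arrays limits the precision, and all arrays came from 1 chip number in the labels.

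The Hox genes, the lists and the rules were chosen with earlier results of these data known. Every kept Hox gene was named; other lists name up to 4 called genes with the largest change, and further genes were named after their values were seen. Nearest neighbours were added after the data were seen. Alternatives covered background, scaling, the authors' values, offset, filter, probe choice, variance model, array weights, threshold, replicate block and leaving out each array.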

Additional observations from a re-analysis of the deposited data

How the results depend on the processing

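No Hox gene changed direction in any of the 17 alternatives that gave it a value. Of the 21 Hox genes that were lower, 17 were called lower in every alternative that gave them a value, and the other 4 (Hoxa2, Hoxc9, Hoxc13 and Hoxd9) lost the call in at least 1. The 17 include Hoxa3, whose direction was fixed by the filter, so its repeated call is no sign of stability. Leaving out 1 array gave 18 to 20 lower and 1 to 2 higher Hox genes, with 0 to 1 higher in Hoxa and 1 to 2 in Hoxd. Dim probes depended on the background step: in 10 Hox genes the change was more than 1.5 times that of the authors' values (Hoxa3, Hoxa4, Hoxa9, Hoxa13, Hoxb3, Hoxb9, Hoxc13, Hoxd3, Hoxd9 and Hoxd11), with a ratio of up to 2.63. The sizes for bright probes such as Hoxc6 (ratio 1.03) and Hoxa5 (1.07) moved little.

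The medians of Hoxa, Hoxb, Hoxc and Hoxd were -0.22, -0.55, -0.43 and -0.19 on plain log2 values, -0.79, -1.30, -0.69 and -0.58 with median scaling, -0.30, -0.71, -0.47 and -0.24 with the authors' values and -0.48, -0.88, -0.10 and -0.16 with no detection filter, which adds the 14 dim genes. With an offset of 50 they were -0.40 (Hoxa), -0.89 (Hoxb) and -0.30 (Hoxd), and with detection p below 0.01 on all 6 arrays that of Hoxd was -0.44. The medians of paralog groups 1 to 3 were -0.21 (plain log2), -0.63 (median scaling), -0.30 (authors' values) and -0.33 (offset 50). Those of groups 4 to 8 were -0.96 (plain log2) and -0.59 (no filter), and those of groups 9 to 13 were -0.29, -0.66, -0.41 and -0.13 (plain log2, median scaling, authors' values, no filter). Median scaling moved the median of all genes from 0.03 to -0.08. At an adjusted p threshold of 0.01, 2 Hoxc genes were lower and 9 cofactor and regulator genes were called in place of 19. Leaving out 1 array gave medians of -0.77 to -0.62 (Hoxa), -1.22 to -1.07 (Hoxb), -0.62 to -0.51 (Hoxc), -0.41 to -0.34 (Hoxd), -0.51 to -0.44 (groups 1 to 3), -0.60 to -0.42 (groups 9 to 13) and 12 to 17 regulator genes called. Among limb, trunk and head factors 3 to 6 genes were called without 1 array, in place of 8.

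Arrays with the same replicate number in the authors' columns shared no clear deviation (correlations of deviations -0.048, 0.02 and -0.054). The labels do not say whether the arrays were paired. With the authors' values and the replicate block, the medians were -0.30, -0.71, -0.47 and -0.24 for the clusters and -0.30 and -0.41 for groups 1 to 3 and 9 to 13, as without the block, and 21 Hox genes were lower.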
